A study of Mus musculus with 12 samples.

Results

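The matrix metalloproteinases (Mmp), the ADAMTS proteinases (Adamts), the ADAMTS-like proteins (Adamtsl), and the tissue inhibitors of metalloproteinases (Timp) were examined in smooth muscle cells (SMCs) of the mouse thoracic aorta. Members were the genes of the count table whose symbol starts with Mmp, Adamts, or Adamtsl followed by a number, together with *Timp1*, *Timp2*, *Timp3*, and *Timp4*. This rule gave 51 of 52636 genes, namely 23 Mmp, 19 Adamts, 5 Adamtsl, and 4 Timp genes. Of these, 42 passed the filter on low counts and were tested, and 9 were not tested.

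Mmp and Adamts genes encode zinc-dependent endopeptidases that cleave components of the extracellular matrix (ECM), most of them secreted and some of the Mmps anchored in the plasma membrane. Adamts proteinases divide further into those that cleave large proteoglycans such as versican and aggrecan and those that remove the N-terminal propeptide of fibrillar procollagens, whereas Adamtsl proteins share the accessory domains but lack the proteinase domain, and several bind microfibrils. The Timp proteins block the active site of these proteinases, *Timp3* is held in the ECM and also inhibits several Adamts proteinases, and the balance of proteinase and inhibitor is a recurrent theme in aortic aneurysm and dissection.

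The study deleted the type I and type II TGF-β receptors in SMCs of adult mice and profiled the sorted cells by bulk RNA-seq. GFPiSMC mice carried *Myh11-CreERT2*, a tamoxifen-inducible Cre recombinase under the SMC promoter *Myh11*, and the *mT/mG* reporter, which turns on green fluorescent protein (GFP) in recombined cells. Tgfbr1/2iSMCKO mice carried the same 2 transgenes and floxed alleles of *Tgfbr1* and *Tgfbr2*. Viable GFP+ cells were sorted after cold enzymatic digestion of the ascending aorta with the arch (hereafter ascending/arch) or of the descending thoracic aorta, which gave 4 groups of 3 libraries. Mice of all groups were 12 weeks old, had the C57BL/6J background, and received tamoxifen for 5 days, and because the Cre transgene lies on the Y chromosome only males were used. The labels name 1 mg/d at 4 weeks and 2 mg/d at 11 weeks of age without saying which library had which, and the methods give 11 weeks as the age at induction apart from a subgroup. The GFPiSMC line has no floxed alleles, so mouse line and receptor deletion cannot be told apart. Cells whose reporter did not recombine were left out by the sort, which did not select for recombination of the floxed alleles. A shared genotype and number in the labels was read as 1 animal that gave both segments.

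Total counts per library ranged from 20467027 to 31392396, from 9208 to 20000 sorted cells, and members held 0.261% to 0.449% of them. Levels are given in CPM, that is, counts over the TMM-scaled library size of edgeR, and in CPM per kilobase (kb) of exon where genes are compared with each other. The targeted transcripts remained in the libraries labelled Tgfbr1/2iSMCKO. *Tgfbr1* ranged from 196 to 292 CPM in GFPiSMC and from 198 to 295 CPM in Tgfbr1/2iSMCKO libraries (log2 fold change 0.10, adjusted p = 0.790 by edgeR), and *Tgfbr2* from 88.9 to 128 CPM and from 68.2 to 102 CPM (−0.26, adjusted p = 0.233), with the genotypes apart within each segment. Since 1 count covers all exons of a gene, the loss of a floxed exon is not checked by these values, and the genotypes are those of the labels. The summed level of 6 SMC markers, *Myh11* and *Acta2* among them, was 32911 to 46872 CPM. The sum of 7 fibroblast markers was 117 to 255 CPM in ascending/arch and 29.4 to 72.0 CPM in descending libraries. The 6 macrophage markers summed to 5.47 to 17.7 CPM and the 4 neutrophil markers to 0.207 to 1.65 CPM. Of the 6 endothelial markers, which summed to 54.4 to 104 CPM, *Pecam1* gave 44.4 to 95.7 CPM while *Cdh5*, *Kdr*, *Tie1*, and *Emcn* stayed at or below 2.71 CPM and Vwf at or below 12.7 CPM. Between genotypes, 2 of these markers passed the edgeR test, *Cdh5* with a mean of 0.169 CPM in GFPiSMC and 1.26 CPM in Tgfbr1/2iSMCKO libraries (adjusted p = 0.0250) and the fibroblast marker *Col14a1* with 52.7 and 29.0 CPM (adjusted p = 0.0316), and their part in the results for members was not tested. The libraries of Tgfbr1/2iSMCKO replicate 3 deviated together from their group means (correlation across 9210 genes 0.661), and they stood apart for several members described below. In a bulk library, fewer cells of a type and less RNA per cell cannot be told apart.

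Transcripts of inhibitors outnumbered those of proteinases. The 4 Timp genes took a median of 75.4% of all member counts over the 12 libraries (range 69.3% to 79.2%), the 19 Adamts genes 11.2%, the 23 Mmp genes 7.54%, and the 5 Adamtsl genes 4.58%. On the level per kb of exon, the order began with *Timp3* at 279 CPM per kb (mean of 12 libraries), *Timp2* at 86.5, *Mmp23* at 61.1, *Adamts1* at 25.9, *Timp1* at 15.3, and then *Adamtsl3*. Below them, *Timp4* (7.88 CPM per kb), *Adamts5* (6.83), *Mmp17* (6.28), *Adamtsl5* (5.44), *Adamts2* (5.44), *Adamts8* (5.27), and *Adamts15* (4.66) lay close together, and their order changed between groups. On the plain CPM scale, 21 members exceeded 10 CPM on average, and 14 stayed below 1 CPM in all 12 libraries. Counts were present in all 12 libraries for 36 members.

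**Figure D1:**
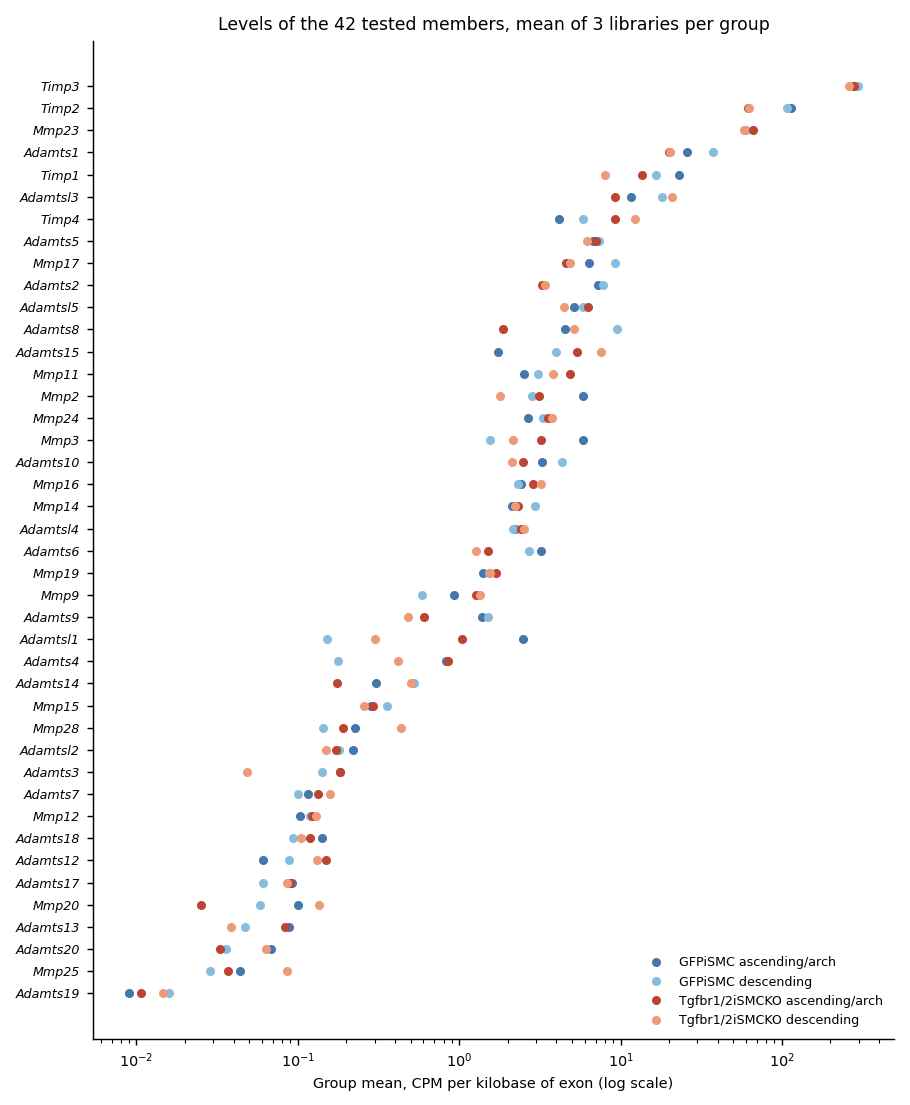
Mean level of each of the 42 tested members in CPM per kb of exon (x axis, log scale) in the 4 groups, each point the mean of 3 libraries, with members ordered by their mean over the 12 libraries. The 4 points of *Timp3* lie near 279 CPM per kb, the GFPiSMC points of *Timp2* lie to the right of the Tgfbr1/2iSMCKO points, and those of *Timp4* lie to the left.

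The 4 genes grouped here as collagenases were at or near 0. None of these 4 (*Mmp1a*, *Mmp1b*, *Mmp8*, and *Mmp13*) was tested, and their summed level was 0 to 0.770 CPM. *Mmp1a* is annotated as a polymorphic pseudogene. The group does not include the membrane-type Mmps, among them *Mmp14* at 8.25 to 23.7 CPM, so its level is not that of all enzymes that may cut collagen. No count of *Mmp1b* was seen in any library, where 3 counts correspond to 0.0956 to 0.147 CPM, a limit that covers counting error only. On chromosome 9, 10 Mmp genes lie side by side (GRCm38, 7272514 to 7699585, 427072 bases), and 3 of them, *Mmp3*, *Mmp12*, and *Mmp20*, were tested. Apart from *Mmp3*, a stromelysin that reached 19.7 CPM in the ascending/arch library of GFPiSMC replicate 3, no gene of the cluster exceeded 1.37 CPM in any library. The cluster summed to 2.22 to 22.0 CPM.

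This cluster differed from the other members in the letters upstream of its genes. The 250 bases before the RefSeq start site (GRCm38.p6) were at hand for 36 of the 51 members and were searched on both strands for TGANTCA, the core of the AP-1 element bound by *Fos* and *Jun* proteins. The RefSeq start used lay 61068 bases from the gene's start in the annotation for *Adamts20*, 3994 for *Mmp11*, and 329 for *Timp2*. It occurred in 6.7% of all 32851 such windows and in 7 of the 36 members (19.4%), namely in 7 of the 10 cluster genes and in 0 of the 26 other members with a window. These 7 sites are shown because they are the sequence feature that most genes of the cluster share. Each is given as 40 bases 5′ to 3′ on the strand of the gene, with the 7 letters of the match in capitals, at chr9:7272462-7272501 (+) for *Mmp13*, chr9:7388097-7388136 (−) for *Mmp1b*, chr9:7445759-7445798 (+) for *Mmp3*, chr9:7464051-7464090 (+) for *Mmp1a*, chr9:7502262-7502301 (+) for *Mmp10*, chr9:7628119-7628158 (+) for *Mmp20*, and chr9:7692010-7692049 (+) for *Mmp7*.
Mmp13: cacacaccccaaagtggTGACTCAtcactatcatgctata
Mmp1b: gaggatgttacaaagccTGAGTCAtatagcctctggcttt
Mmp3: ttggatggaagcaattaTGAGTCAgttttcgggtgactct
Mmp1a: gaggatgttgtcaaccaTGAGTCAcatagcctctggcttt
Mmp10: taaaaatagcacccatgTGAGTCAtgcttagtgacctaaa
Mmp20: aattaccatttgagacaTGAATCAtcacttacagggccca
Mmp7: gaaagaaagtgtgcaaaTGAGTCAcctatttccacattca
The match is TGAGTCA or its other-strand form TGACTCA in 6 of the 7 and TGAATCA in *Mmp20*, and it ends 29 bases before the start site in *Mmp13*, 40 in *Mmp3*, 57 in *Mmp10* and *Mmp7*, 67 in *Mmp1a*, 87 in *Mmp1b*, and 89 in *Mmp20*. Transcripts of the factors that bind these letters were measured in the same cells, with *Fos* at 16.0 to 222 CPM and *Jun* at 24.2 to 179 CPM over the 12 libraries. The stretches of *Mmp1a* and *Mmp1b* share most of their letters outside the match as well, so the 7 are not all independent occurrences. A match of letters describes the sequence and does not show binding.

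Between genotypes, over the 12 libraries with segment as a covariate, 8 of the 42 tested members changed at an adjusted p under 0.05 (edgeR's quasi-likelihood test with Benjamini-Hochberg adjustment over 22320 genes). *Timp2*, *Adamts2*, *Adamts6*, *Adamts8*, *Adamts9*, and *Mmp17* were lower in Tgfbr1/2iSMCKO SMCs, 6 of 42 beside 3.23% of all genes tested. *Timp4* and *Adamts15* were higher, 2 of 42 beside 1.8% of all genes. With a change of more than 2-fold also required, 4 were lower (*Adamts2*, *Adamts6*, *Adamts8*, and *Adamts9*), beside 1.64% of all genes, and the same 2 were higher, beside 1.03%. The median log2 fold change of the 42 was −0.08, with 25 below 0 and 17 above, and that of all genes was 0.04. These counts include tested members that stayed below 1 CPM in all 12 libraries. This fit treats the segments of an animal as independent libraries. With counts summed per animal, 2 members were lower (*Timp2* and *Adamts2*) and 0 higher, and with the animal as a random effect 4 were lower (*Timp2*, *Adamts2*, *Adamts6*, and *Adamts8*) and 1 higher (*Timp4*). The share of all genes called by either of these fits is not given, so their counts are no result about the members as a set. In the edgeR fit over 12 libraries, an unadjusted p under 0.05 was found for 15 of the 42 and for 16.1% of all genes.

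Separation of the libraries gave a different selection. All 6 Tgfbr1/2iSMCKO libraries lay below all 6 GFPiSMC libraries for 3 members, *Timp2*, *Adamts2*, and *Adamts6*, as they did for 2.89% of all genes. They lay above for 1 member, *Mmp16*, as they did for 1.51% of all genes. *Mmp16*, a membrane-type proteinase, ranged from 18.6 to 22.4 CPM in GFPiSMC and from 23.0 to 32.8 CPM in Tgfbr1/2iSMCKO libraries, and edgeR put the log2 fold change at 0.36 with an SE of 0.14 and an adjusted p of 0.186. The separation was narrow and the test across all genes did not pass.

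**Figure D2:**
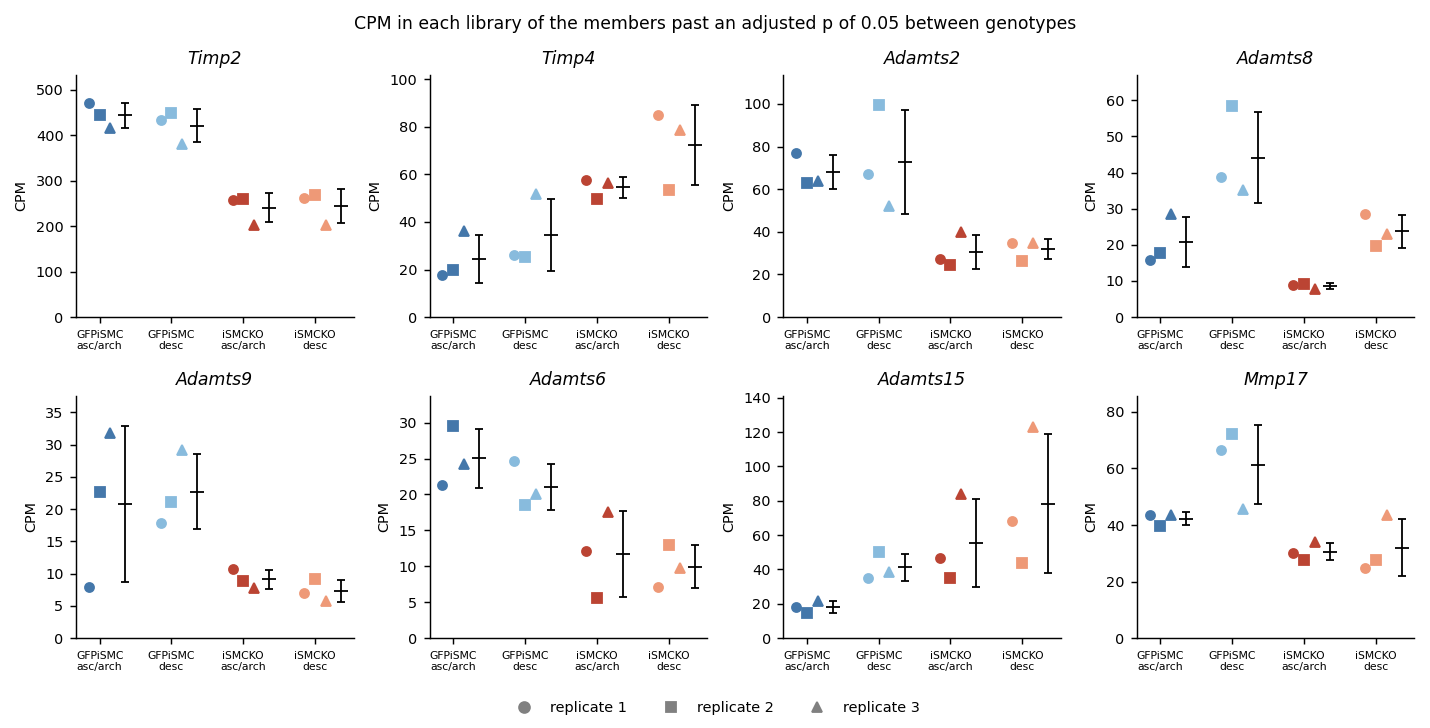
CPM (y axis) of the 8 members past an adjusted p of 0.05 between genotypes, in each library of the 4 groups, with the replicate number as the point shape and the mean ± SD of 3 libraries at the right of each group. For *Timp2* the 6 Tgfbr1/2iSMCKO points, at 202 to 269 CPM, lie below the 6 GFPiSMC points, at 380 to 471 CPM.

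Among the inhibitors, *Timp2* and *Timp4* moved in opposite directions while *Timp3*, by far the highest, differed between genotypes by less than its SE. *Timp2* (ENSMUSG00000017466.9; GRCm38 chromosome 11, 118301069 to 118355740, minus strand) inhibits most Mmps and also takes part in the activation of *Mmp2* at the cell surface. It was at 471, 443, and 416 CPM in ascending/arch libraries of GFPiSMC replicates 1, 2, and 3 and at 434, 448, and 380 CPM in their descending libraries. In Tgfbr1/2iSMCKO replicates it was at 258, 259, and 203 CPM in ascending/arch and at 262, 269, and 202 CPM in descending libraries. Every Tgfbr1/2iSMCKO library was below every GFPiSMC library, and the segments of a genotype were alike. For Tgfbr1/2iSMCKO over GFPiSMC, the log2 fold change was −0.83 (SE 0.10, adjusted p = 0.000289, edgeR over 12 libraries). It was −0.88 (SE 0.15, adjusted p = 0.0124) in ascending/arch and −0.78 (SE 0.15, adjusted p = 0.0226) in descending SMCs. The 12-library call held in each of the 13 alternatives, counts summed per animal included (adjusted p = 0.0226, range 2.42e-10 to 0.0226). For the effect within a segment, the replicate block was fitted by edgeR to the libraries of that segment alone. The ascending/arch call was lost with this block (adjusted p = 0.0956). It was also lost without GFPiSMC replicate 1 (0.0883), GFPiSMC replicate 2 (0.0759), or Tgfbr1/2iSMCKO replicate 1 (0.0680). The descending call was lost in 7 of 12 alternatives. These were the segment fitted alone with a replicate block (adjusted p = 0.566) or without one (0.140) and library size in place of TMM (0.0758). The others were the fits without GFPiSMC replicates 1, 2, and 3 (0.121, 0.148, and 0.0556) or Tgfbr1/2iSMCKO replicate 1 (0.0990).

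*Timp4* (ENSMUSG00000030317.8; chromosome 6, 115241892 to 115252205, minus strand), an inhibitor with a narrower pattern of expression that includes the cardiovascular system, was higher in Tgfbr1/2iSMCKO SMCs. In GFPiSMC replicates 1, 2, and 3 it was at 17.7, 19.6, and 36.2 CPM in ascending/arch and at 25.9, 25.3, and 51.9 CPM in descending libraries. Tgfbr1/2iSMCKO replicates 1, 2, and 3 had 57.6, 49.5, and 56.6 CPM in ascending/arch and 84.9, 53.4, and 78.7 CPM in descending libraries. Within each segment the genotypes did not overlap. Over the 12 libraries they did, since descending GFPiSMC replicate 3, at 51.9 CPM, exceeded ascending/arch Tgfbr1/2iSMCKO replicate 2, at 49.5 CPM. GFPiSMC replicate 3 was the highest of its genotype in both segments. The log2 fold change was 1.12 (SE 0.23, adjusted p = 0.0108 by edgeR), or 1.16 (SE 0.34, adjusted p = 0.151) in ascending/arch and 1.08 (SE 0.34, adjusted p = 0.189) in descending SMCs. The adjusted p was 0.139 with counts summed per animal, 0.0783 without Tgfbr1/2iSMCKO replicate 1, 0.0790 without GFPiSMC replicate 1, and 0.0799 without GFPiSMC replicate 2, with a range of 0.000155 to 0.139 over 13 alternatives.

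*Timp3* (ENSMUSG00000020044.13; chromosome 10, 86300372 to 86349506, plus strand) was at 2654, 1905, and 2240 CPM in ascending/arch and at 2647, 2875, and 1715 CPM in descending libraries of GFPiSMC replicates 1, 2, and 3. The Tgfbr1/2iSMCKO libraries of replicates 1, 2, and 3 held 1762, 1858, and 3188 CPM in ascending/arch and 1933, 1378, and 3106 CPM in descending libraries. Replicate 3 of Tgfbr1/2iSMCKO exceeded every other library in both segments, and the remaining Tgfbr1/2iSMCKO libraries overlapped the GFPiSMC range or lay below it. edgeR put the log2 fold change at −0.09 (SE 0.21, adjusted p = 0.918). *Timp3* lies inside *Syn3*, a gene on the opposite strand, which was listed at 751 to 1232 CPM, and since use of strand in counting is not stated in the sources used here, reads of the pair cannot be told apart.

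*Timp1* (ENSMUSG00000001131.11; chromosome X, 20870166 to 20874735, plus strand), the inhibitor typically induced by cytokines and injury, was the lowest of the family in CPM. It was at 11.6, 25.4, and 24.1 CPM in ascending/arch and at 14.7, 8.73, and 20.5 CPM in descending libraries of GFPiSMC replicates 1, 2, and 3. In Tgfbr1/2iSMCKO mice, replicates 1, 2, and 3 had 15.3, 15.2, and 5.80 CPM in ascending/arch and 5.05, 11.7, and 4.52 CPM in descending libraries. The genotypes overlapped in both segments, and the log2 fold change was −0.90 (SE 0.34, unadjusted p = 0.0199, adjusted p = 0.184 by edgeR). As a family, the 4 Timp genes summed to 2754 ± 382 and 2882 ± 631 CPM in ascending/arch and descending GFPiSMC SMCs and to 2576 ± 761 and 2462 ± 854 CPM for Tgfbr1/2iSMCKO (mean ± SD over n = 3 animals), a difference within the spread.

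Among the proteoglycanase Adamts genes, 2 of 7 fell (beside 3.23% of all genes), 1 rose (beside 1.8%), and the remaining 4 did not pass the test. *Adamts8* (ENSMUSG00000031994.13; chromosome 9, 30942562 to 30963838, plus strand), a proteinase first described as an inhibitor of angiogenesis, was at 15.9, 17.8, and 28.6 CPM in ascending/arch and at 38.8, 58.5, and 35.2 CPM in descending libraries of GFPiSMC replicates 1, 2, and 3. In Tgfbr1/2iSMCKO replicates it was at 8.96, 9.27, and 7.73 CPM in ascending/arch and at 28.6, 19.6, and 22.9 CPM in descending libraries. Both genotypes had more *Adamts8* in the descending segment, and within each segment the genotypes did not overlap. edgeR gave −1.08 on the log2 scale (SE 0.20, adjusted p = 0.00529), and it kept an adjusted p under 0.05 with each animal left out in turn but not with counts summed per animal (adjusted p = 0.0508, range over 13 alternatives 9.33e-06 to 0.0508).

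*Adamts15* (ENSMUSG00000033453.8; chromosome 9, 30899155 to 30922452, minus strand), which cleaves versican and aggrecan, is the neighbour of *Adamts8*, with start sites 20110 bases apart and transcription in opposite directions. It moved the other way. It was at 17.9, 14.7, and 21.9 CPM in ascending/arch and at 35.1, 50.1, and 38.6 CPM in descending libraries of GFPiSMC replicates 1, 2, and 3, whereas Tgfbr1/2iSMCKO replicates had 46.8, 35.1, and 84.0 CPM in ascending/arch and 68.0, 44.0, and 123 CPM in descending libraries. In ascending/arch SMCs the genotypes did not overlap, in descending SMCs they did, and Tgfbr1/2iSMCKO replicate 3 was the highest in both. For Tgfbr1/2iSMCKO over GFPiSMC, the log2 fold change was 1.27 (SE 0.28, adjusted p = 0.0172 by edgeR), and 0.80 (adjusted p = 0.0671) without Tgfbr1/2iSMCKO replicate 3. The call was also lost without any one of the 3 GFPiSMC animals (adjusted p = 0.129, 0.0574, and 0.0853 without replicates 1, 2, and 3), with the animal as a random effect (0.0542), and with counts summed per animal (0.165, range over 13 alternatives 0.000378 to 0.165).

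*Adamts9* (ENSMUSG00000030022.14; chromosome 6, 92772699 to 92943492, minus strand), a conserved versican-cleaving proteinase that acts in heart and vessel development, had a large drop that rested on a variable control group. It was at 7.88, 22.6, and 31.8 CPM in ascending/arch and at 17.9, 21.1, and 29.2 CPM in descending libraries of GFPiSMC replicates 1, 2, and 3. Tgfbr1/2iSMCKO replicates 1, 2, and 3 had 10.7, 8.88, and 7.73 CPM in ascending/arch and 6.96, 9.11, and 5.70 CPM in descending libraries. The ascending/arch library of GFPiSMC replicate 1 lay within the Tgfbr1/2iSMCKO range, and the other 5 GFPiSMC libraries lay above it. The log2 fold change was −1.42 (SE 0.29, adjusted p = 0.0116 by edgeR) and −1.69 (adjusted p = 0.00120) without GFPiSMC replicate 1. The adjusted p was 0.0552 and 0.0923 without GFPiSMC replicates 2 and 3, 0.0578 and 0.0623 without Tgfbr1/2iSMCKO replicates 1 and 3, 0.0575 with the animal as a random effect, and 0.0895 with counts summed per animal (range over 13 alternatives 9.43e-05 to 0.0923).

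The best expressed proteoglycanases, *Adamts1* and *Adamts5*, were not among the genes that passed. *Adamts1* (ENSMUSG00000022893.14; chromosome 16, 85793827 to 85803113, minus strand), an early responder to many stimuli, was at 106, 133, and 172 CPM in ascending/arch and at 132, 274, and 191 CPM in descending libraries of GFPiSMC replicates 1, 2, and 3. The Tgfbr1/2iSMCKO libraries of replicates 1, 2, and 3 held 55.4, 144, and 118 CPM and 67.4, 146, and 111 CPM in the same segments. Replicate 1 was low and replicate 2 high in both segments of Tgfbr1/2iSMCKO mice, the genotypes overlapped in each segment, and the log2 fold change was −0.63 (SE 0.27, adjusted p = 0.253 by edgeR). The summed level of 8 immediate early genes, *Fos* and *Atf3* among them, was 678, 864, and 374 CPM in ascending/arch and 726, 1248, and 305 CPM in descending libraries of GFPiSMC replicates 1, 2, and 3. In Tgfbr1/2iSMCKO replicates it was 235, 893, and 262 CPM and 246, 540.3, and 220.2 CPM. Replicate 2 was the highest in each group, as for *Adamts1* in all but ascending/arch GFPiSMC libraries, whereas GFPiSMC replicate 3 had the lowest sum of its genotype and more *Adamts1* than replicate 1, and the part of these genes in the level of *Adamts1* was not tested. *Adamts5* (ENSMUSG00000022894.5; chromosome 16, 85856173 to 85901828, minus strand), the main aggrecanase of mouse cartilage and a versican-cleaving enzyme of the aorta, was even across the libraries. It was at 66.6, 89.8, and 61.5 CPM in ascending/arch and at 87.8, 84.5, and 64.4 CPM in descending libraries of GFPiSMC replicates and at 81.6, 75.0, and 72.3 CPM and 62.1, 78.6, and 60.0 CPM in those of Tgfbr1/2iSMCKO replicates. Between genotypes it differed by −0.08 on the log2 scale (SE 0.14, adjusted p = 0.871 by edgeR). *Adamts4* (0.704 to 6.93 CPM) and *Adamts20* (0 to 0.810 CPM) were low throughout.

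Among the procollagen N-proteinases, *Adamts2* was the only one with more than 5 CPM, and it fell. *Adamts2* (ENSMUSG00000036545.8; chromosome 11, 50602084 to 50807573, plus strand) removes the N-propeptide of fibrillar procollagens. It was at 77.1, 62.7, and 63.9 CPM in ascending/arch and at 67.2, 99.6, and 51.9 CPM in descending libraries of GFPiSMC replicates 1, 2, and 3. In Tgfbr1/2iSMCKO mice, replicates 1, 2, and 3 had 27.3, 24.4, and 39.8 CPM in ascending/arch and 34.7, 26.3, and 34.6 CPM in descending libraries. Every Tgfbr1/2iSMCKO library was below every GFPiSMC library. edgeR put the log2 fold change at −1.17 (SE 0.18, adjusted p = 0.00139), a 2.26-fold drop, and the call held in each of 13 alternatives (adjusted p 9.94e-08 to 0.0365, the last with counts summed per animal). In descending SMCs it was −1.19 (SE 0.27, adjusted p = 0.0430), a call that did not hold without any one of the 6 animals (adjusted p 0.0525 to 0.279). With a replicate block in a fit of the descending libraries alone, the adjusted p by edgeR was 0.587. In ascending/arch SMCs it was −1.15 (SE 0.27, adjusted p = 0.0562). *Adamts3* (0 to 2.02 CPM) and *Adamts14* (0.446 to 4.82 CPM), the other procollagen N-proteinases, had log2 fold changes of −0.70 (SE 0.71) and −0.41 (SE 0.53).

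The sequences just upstream of *Adamts2*, which fell, and of *Timp4*, which rose, are printed because they are called members on either side whose RefSeq start lies within 1 base of the gene's start in the annotation. Each is the 250 bases before the start site in GRCm38.p6, 5′ to 3′ on the strand of the gene, at chr11:50601835-50602084 (+) for *Adamts2* and at chr6:115252206-115252455 (−) for *Timp4*. The capitals mark CAGAC, the letters of a SMAD-binding element, which *Timp4* holds on the other strand.
Adamts2: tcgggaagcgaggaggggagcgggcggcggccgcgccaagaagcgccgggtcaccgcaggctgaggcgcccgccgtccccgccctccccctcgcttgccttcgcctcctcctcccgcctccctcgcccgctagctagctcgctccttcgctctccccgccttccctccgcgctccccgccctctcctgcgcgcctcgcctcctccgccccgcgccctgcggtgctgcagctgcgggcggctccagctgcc
Timp4: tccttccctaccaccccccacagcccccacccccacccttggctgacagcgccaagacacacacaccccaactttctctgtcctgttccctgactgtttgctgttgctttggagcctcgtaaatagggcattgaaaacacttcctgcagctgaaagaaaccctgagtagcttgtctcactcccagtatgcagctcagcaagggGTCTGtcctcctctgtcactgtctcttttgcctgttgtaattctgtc
The CAGAC letters occurred in 16 of the 36 members with a window (44.4%) and in 42.2% of all windows, and in 1 of the 4 called members with a window, *Timp4*. The 16 include *Adamts20* and *Mmp11*, whose windows lie far from the gene's start in the annotation. GGAATG, the letters of a TEAD element, occurred in 2 of the 36 (*Adamts13* and *Timp1*) and in 12.6% of all windows, and the CArG box, the element of serum response factor, in 0 of the 36 and in 1.5% of all windows. No match of one pattern overlapped a match of another in the 36 windows, and windows for *Adamts6*, *Adamts8*, *Adamts15*, and *Mmp17* were not analysed here.

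*Adamts6* (ENSMUSG00000046169.10; chromosome 13, 104287835 to 104496695, plus strand), a proteinase linked to fibrillin microfibrils and heart development, was the only other Adamts gene to change. It was at 21.3, 29.5, and 24.3 CPM in ascending/arch and at 24.6, 18.5, and 20.0 CPM in descending libraries of GFPiSMC replicates 1, 2, and 3. In Tgfbr1/2iSMCKO replicates it was at 12.1, 5.58, and 17.5 CPM and at 7.12, 13.0, and 9.75 CPM in the same segments. The genotypes did not overlap, although ascending/arch Tgfbr1/2iSMCKO replicate 3, at 17.5 CPM, came close to descending GFPiSMC replicate 2, at 18.5 CPM. By edgeR the log2 fold change was −1.09 (SE 0.25, adjusted p = 0.0221). It lost the call without Tgfbr1/2iSMCKO replicate 1 (adjusted p = 0.126), without any one GFPiSMC animal (0.103, 0.0909, and 0.0848 for replicates 1, 2, and 3), and with counts summed per animal (0.0699, range over 13 alternatives 0.000729 to 0.126). *Adamts10*, its close relative, was at 21.1 to 49.2 CPM in GFPiSMC and at 8.99 to 37.7 CPM in Tgfbr1/2iSMCKO libraries, or −0.70 on the log2 scale (SE 0.36, adjusted p = 0.374).

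Among the Mmp genes, 1 of 15 tested was lower in Tgfbr1/2iSMCKO SMCs by edgeR (beside 3.23% of all genes) and 0 were higher (beside 1.8%). A single call does not set the family apart from all genes. DESeq2 also called *Mmp9* and *Mmp16*, both higher. *Mmp17* (ENSMUSG00000029436.9; chromosome 5, 129584169 to 129611099, plus strand), also called MT4-MMP, is held at the membrane by a lipid anchor and is a known product of aortic SMCs. It was at 43.4, 39.7, and 43.7 CPM in ascending/arch and at 66.4, 72.1, and 45.7 CPM in descending libraries of GFPiSMC replicates 1, 2, and 3. Tgfbr1/2iSMCKO replicates 1, 2, and 3 had 30.0, 27.8, and 33.9 CPM and 24.8, 27.6, and 43.7 CPM in the same segments. The genotypes did not overlap within a segment, but descending Tgfbr1/2iSMCKO replicate 3 reached the level of ascending/arch GFPiSMC libraries. For Tgfbr1/2iSMCKO over GFPiSMC, the log2 fold change was −0.70 (SE 0.18, adjusted p = 0.0370 by edgeR). This was the least stable of the 8 calls, lost in 10 of 13 alternatives, among them library size in place of TMM (adjusted p = 0.0662), a replicate block (0.0655), and 5 of the 6 animals left out in turn (0.174, 0.123, and 0.0778 without GFPiSMC replicates 1, 2, and 3, and 0.167 and 0.125 without Tgfbr1/2iSMCKO replicates 1 and 2), with a range of 0.00425 to 0.190.

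*Mmp23* (ENSMUSG00000029061.2; chromosome 4, 155650655 to 155653384, minus strand), an atypical proteinase with an N-terminal membrane anchor, was the most abundant Mmp. It was at 145, 120, and 153 CPM in ascending/arch and at 146, 168, and 107 CPM in descending libraries of GFPiSMC replicates 1, 2, and 3, and at 140, 150, and 176 CPM and 154, 94.0, and 162 CPM in those of Tgfbr1/2iSMCKO replicates. The groups overlapped, and edgeR gave 0.06 on the log2 scale (SE 0.16, adjusted p = 0.924). The gelatinases had opposite signs and neither passed by edgeR, while DESeq2 called *Mmp9* higher. *Mmp2*, the constitutive gelatinase, was at 4.66 to 25.0 CPM in GFPiSMC and 3.17 to 13.3 CPM in Tgfbr1/2iSMCKO libraries (log2 fold change −0.78, SE 0.34, adjusted p = 0.264), and *Mmp9*, the inducible one, at 1.33 to 3.54 and 2.77 to 5.98 CPM (0.82, SE 0.28, adjusted p = 0.135). *Mmp14*, the cell-surface activator of *Mmp2*, was at 8.25 to 23.7 CPM with a log2 fold change of −0.15 (SE 0.28).

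By subfamily, the median log2 fold change of the tested genes was −0.70 for the 3 procollagen N-proteinases, −0.46 for the 4 Timps, −0.11 for the 7 proteoglycanases, −0.06 for the 5 Adamtsl genes, 0.01 for the 8 other Adamts genes, 0.07 for the 6 membrane-type Mmps, 0.15 for the 5 other Mmps, 0.21 for *Mmp3* and *Mmp11*, and 0.02 for the gelatinases. All genes had a median of 0.04. The tested genes include *Adamts13*, *Adamts19*, *Adamts20*, *Mmp20*, and *Mmp25*, which stayed below 1 CPM in all 12 libraries. They enter these medians, although such levels give no basis for a statement on change. *Adamts2*, which held nearly all counts of the procollagen N-proteinases, carried the summed level of that subfamily from 70.5 ± 10.1 and 76.4 ± 26.0 CPM in ascending/arch and descending GFPiSMC SMCs to 32.4 ± 8.57 and 34.8 ± 5.42 CPM for Tgfbr1/2iSMCKO (mean ± SD over n = 3 animals). The membrane-type Mmps summed to 90.4 ± 4.24 and 117 ± 22.3 CPM and to 87.6 ± 11.0 and 92.7 ± 21.4 CPM, which overlapped.

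Within each segment on its own, few members passed. In ascending/arch SMCs 1 member was lower (*Timp2*, beside 1.01% of all genes) and 0 were higher (beside 0.403%). There, 10 of 42 members and 11.4% of all genes had an unadjusted p under 0.05 by edgeR. In descending SMCs 2 were lower (*Timp2* and *Adamts2*, beside 1.21% of all genes) and 0 were higher (beside 0.52%). There, 13 of 42 members and 10.7% of all genes had an unadjusted p under 0.05 by edgeR. DESeq2 called 3 lower and 2 higher in ascending/arch and 4 lower and 1 higher in descending SMCs. The share of all genes that DESeq2 called is not given, so these counts are no result about the members as a set. The comparison of the genotype effect between the segments called 0 members by edgeR, and 0.0% of all genes, with 1 of 42 members and 2.95% of all genes at an unadjusted p under 0.05, and DESeq2 called 0 as well.

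**Figure D3:**
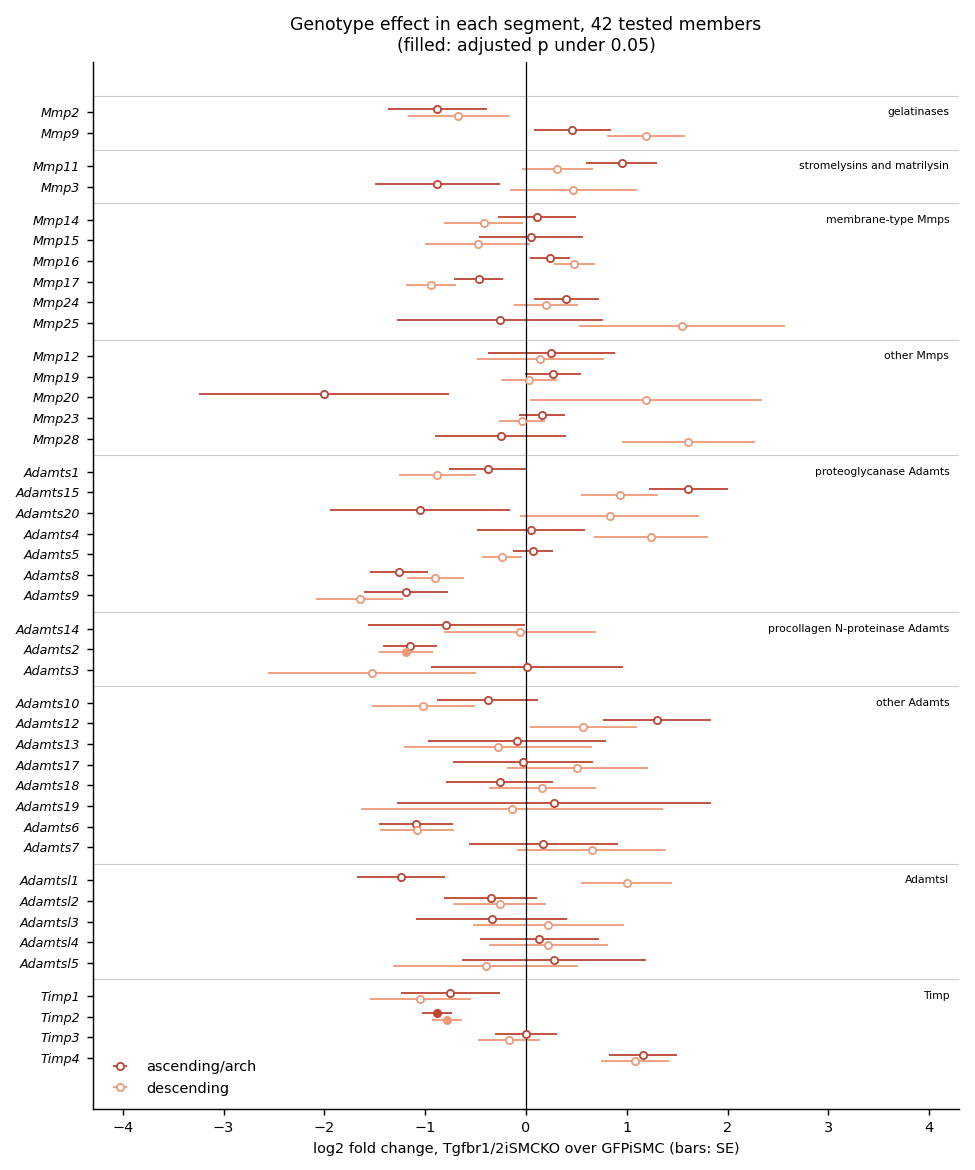
Log2 fold change of Tgfbr1/2iSMCKO over GFPiSMC (x axis, bars ± SE) in ascending/arch and in descending SMCs for the 42 tested members, grouped by subfamily, with filled points for an adjusted p under 0.05. Filled points are *Timp2* in both segments and *Adamts2* in descending SMCs, and *Adamtsl1* has values of −1.24 and 1.00 on either side of 0.

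The 1 member with an unadjusted p under 0.05 for that difference was *Adamtsl1*, and it also had the largest fold change between the segments of GFPiSMC mice among the 42. *Adamtsl1* (ENSMUSG00000066113.16; chromosome 4, 85514172 to 86428385, plus strand), also called punctin, is a secreted ECM protein without proteinase activity. In GFPiSMC replicates 1, 2, and 3 it was at 39.2, 20.9, and 34.4 CPM in ascending/arch and at 1.99, 1.79, and 2.01 CPM in descending libraries. The Tgfbr1/2iSMCKO libraries of replicates 1, 2, and 3 held 16.2, 4.27, and 19.5 CPM in ascending/arch and 4.18, 3.59, and 3.81 CPM in descending libraries. The segments did not overlap in either genotype, but ascending/arch replicate 2 of Tgfbr1/2iSMCKO mice came down to the descending level. From ascending/arch to descending the log2 fold change was −4.03 (SE 0.49, adjusted p = 0.00349 by edgeR) in GFPiSMC and −1.79 (SE 0.45, adjusted p = 0.324) in Tgfbr1/2iSMCKO SMCs. The first lost its call without any one GFPiSMC animal (adjusted p = 0.121, 0.0594, and 0.0675 without replicates 1, 2, and 3, range over 11 alternatives 8.2e-15 to 0.121), while its log2 fold change stayed between −4.20 and −3.84.

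The genotype effect on *Adamtsl1* was −1.24 (SE 0.44, adjusted p = 0.268) in ascending/arch, where all 3 Tgfbr1/2iSMCKO libraries lay below the GFPiSMC libraries, and 1.00 (SE 0.45, adjusted p = 0.454) in descending SMCs, where all 3 lay above. The difference of the effects was 2.24 on the log2 scale (SE 0.63, unadjusted p = 0.00387, adjusted p = 1.0 by edgeR). Fibroblast markers moved with the segment as well. All 7 (*Pdgfra*, *Dcn*, *Lum*, *Dpt*, *Pi16*, *Scara5*, and *Col14a1*) were lower in descending than in ascending/arch SMCs of both genotypes by their log2 fold change, with 2 past the test in GFPiSMC (*Lum* and *Scara5*) and 1 in Tgfbr1/2iSMCKO SMCs (*Lum*). Their sum was 186 to 215 CPM in ascending/arch and 56.5 to 72.0 CPM in descending GFPiSMC libraries and 117 to 255 CPM and 29.4 to 57.7 CPM in Tgfbr1/2iSMCKO libraries, *Dpt* was listed at 0 in 1 library and *Pi16* in 2, and their part in the level of *Adamtsl1* was not tested.

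In all, 1 member was lower in descending GFPiSMC SMCs (*Adamtsl1*, beside 0.309% of all genes) and 0 were higher (beside 0.0672%). For this comparison, 6 of 42 members and 5.98% of all genes had an unadjusted p under 0.05 by edgeR. In Tgfbr1/2iSMCKO SMCs 0 were lower (beside 0.0941%) and 0 were higher (beside 0.0179%). An unadjusted p under 0.05 by edgeR was found there for 2 of 42 members and for 3.68% of all genes. DESeq2 called *Adamtsl1* lower and *Adamts8* higher in descending than in ascending/arch Tgfbr1/2iSMCKO SMCs. The log2 fold change of *Adamts8* from ascending/arch to descending was 1.09 (SE 0.28, adjusted p = 0.232 by edgeR) in GFPiSMC and 1.45 (SE 0.29, adjusted p = 0.110) in Tgfbr1/2iSMCKO SMCs. For *Adamts15*, its neighbour, it was 1.19 (SE 0.39, adjusted p = 0.520) in GFPiSMC and 0.50 (SE 0.38, adjusted p = 1.0) in Tgfbr1/2iSMCKO SMCs. *Adamts4*, which also cleaves aggrecan and versican, was at 2.37 to 4.80 CPM in ascending/arch and at 0.763 to 0.921 CPM in descending GFPiSMC libraries, without overlap (log2 fold change −2.21, SE 0.58, adjusted p = 0.240 by edgeR), and its Tgfbr1/2iSMCKO libraries overlapped (−1.02, SE 0.55). In GFPiSMC SMCs, DESeq2 called *Adamts4* lower and *Adamts8* higher beside *Adamtsl1*.

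**Figure D4:**
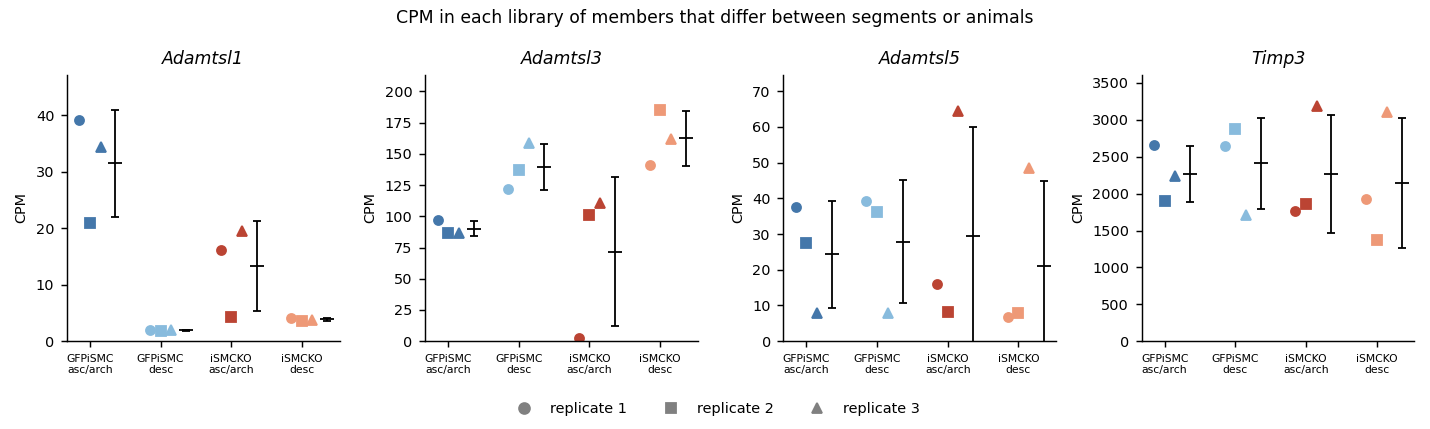
CPM (y axis) of *Adamtsl1*, *Adamtsl3*, *Adamtsl5*, and *Timp3* in each library of the 4 groups, with the replicate number as the point shape and the mean ± SD of 3 libraries at the right of each group, where SD bars that reach below 0 are cut off at 0. *Adamtsl1* is high in ascending/arch SMCs, 1 ascending/arch library of *Adamtsl3* lies at 2.81 CPM, and Tgfbr1/2iSMCKO replicate 3 is the highest library for *Adamtsl5* and *Timp3* in both segments.

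Some members varied more between animals than between genotypes. *Adamtsl5*, a microfibril-associated protein, had mean levels over both segments of 38.4, 31.8, and 7.94 CPM in GFPiSMC replicates 1, 2, and 3 and of 11.3, 8.10, and 56.5 CPM in Tgfbr1/2iSMCKO replicates 1, 2, and 3. Both libraries of an animal gave like values, so that the high and low animals occurred in both genotypes, and the log2 fold change was −0.06 (SE 0.63). Replicate 3 was also the highest Tgfbr1/2iSMCKO animal for *Adamts10* (32.7 CPM beside 13.0 and 11.6 CPM), *Adamtsl4* (18.3 beside 8.16 and 4.53 CPM), *Adamts15* (104 beside 57.4 and 39.5 CPM), and *Timp3* (3147 beside 1847 and 1618 CPM). Of the 42 tested members, the highest Tgfbr1/2iSMCKO animal was replicate 3 for 18, replicate 1 for 15, and replicate 2 for 9.

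*Adamtsl3* (ENSMUSG00000070469.12; chromosome 7, 82335694 to 82614450, plus strand), an ADAMTS-like protein of the ECM, was well expressed in all but 1 library. It was at 97.0, 86.9, and 86.3 CPM in ascending/arch and at 122, 137, and 159 CPM in descending libraries of GFPiSMC replicates 1, 2, and 3. In Tgfbr1/2iSMCKO mice, replicates 1, 2, and 3 had 2.81, 101, and 111 CPM in ascending/arch and 141, 185, and 162 CPM in descending libraries. The ascending/arch library of Tgfbr1/2iSMCKO replicate 1, with 82 counts of the gene, stood far below the other 11, whereas the descending library of the same animal did not. The log2 fold change between genotypes over the 12 libraries was −0.06 (SE 0.52, adjusted p = 0.982 by edgeR).

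Of 38 other genes of pericellular proteolysis, 35 were tested, and 9 were lower (beside 3.23% of all genes) and 0 higher (beside 1.8%) in Tgfbr1/2iSMCKO SMCs by edgeR, with a median log2 fold change of −0.24. In the plasminogen system, which activates several Mmps, they included *Serpine2*, an inhibitor of serine proteinases (log2 fold change −0.89, SE 0.08), and *Plaur*, the urokinase receptor (−1.53, SE 0.23). *Reck*, a membrane-bound inhibitor of Mmps, fell by 0.60 on the log2 scale (SE 0.12). The cysteine proteinases *Ctsk* (−1.44, SE 0.19) and *Ctsl* (−1.28, SE 0.11) fell together with their inhibitor *Cst3* (−0.85, SE 0.14). The serine proteinase *Htra1* (−1.40, SE 0.11) and the proprotein convertase *Pcsk5* (−2.65, SE 0.23) were also among the 9, whose adjusted p by edgeR lay between 5.41e-06 and 0.00866, and 6 of them fell more than 2-fold (beside 1.64% of all genes). These calls come from the fit over 12 libraries, which treats the segments of an animal as independent. Values with counts summed per animal or with an animal left out are not given for them.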

How the data were processed

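Bulk RNA-seq libraries of GFP-sorted aortic SMCs from 3 GFPiSMC and 3 Tgfbr1/2iSMCKO mice, 1 per segment and animal, were analysed. Upstream, the authors used Trim Galore (0.5.0) for trimming, HISAT2 (2.1.0) for alignment to GRCm38, and StringTie (1.3.3b) for quantification against GENCODE M15. The deposited values are whole-number counts per gene, not normalized between libraries, and the step from StringTie coverage to counts and the use of strand are not given in the sources used here. All 12 columns belong to samples of the series.

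Symbols, coordinates, and exon lengths were taken from GENCODE M21 (same build, later release), with a symbol for 52403 of 52636 genes. edgeR 4.0.16 in R 4.3.3 was used with filterByExpr on the 4 groups, TMM factors, and the quasi-likelihood test with Benjamini-Hochberg adjustment over 22320 genes, with segment and genotype over 12 libraries or with 4 group means for the other comparisons. SE is the absolute log2 fold change divided by √F, and the common biological coefficient of variation was 0.442. Exact permutation of 3 against 3 animals cannot give a two-sided p below 0.1. Alternatives were DESeq2 1.42.0, RLE factors, library size only, no filter beyond 1 count, counts summed per animal, limma 3.58.1 (voom) with a random effect for animal, a replicate block, a segment fitted alone, and each animal left out in turn. The steps were run on simulated counts drawn independently for each library. The simulation held no effect of animal, so it does not check how libraries of the same animal are treated. Plots used matplotlib 3.10.9 (Python 3.11.15).

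Between the segments of an animal, deviations from the group means correlated at 0.187, −0.242, and 0.0240 in GFPiSMC and at 0.0612, 0.377, and 0.661 in Tgfbr1/2iSMCKO replicates 1, 2, and 3 (9210 genes with a mean log2 CPM above 3). Values in every library are given for members past an adjusted p of 0.05 in any comparison, the Timp genes, and the 10 members with the highest mean CPM. The values of 1 other pathway gene are not reported here. The members, gene lists, and tests were chosen with earlier results of these data known.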

Additional observations from a re-analysis of the deposited data

Results flagged for a closer look

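The genotype effect on *Adamtsl1* had opposite signs in the segments, with every ascending/arch Tgfbr1/2iSMCKO library below and every descending one above the GFPiSMC libraries. The difference of the effects was 2.24 on the log2 scale (SE 0.63) with an unadjusted p of 0.00387 and an adjusted p of 1.0 over 22320 genes by edgeR, so it does not pass the correction.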

How the results depend on the processing

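No single value named for a called member changed direction under any alternative. Of 151 such values, 95 kept their side of the threshold and 56 kept only the direction. Over 12 libraries, *Timp2* and *Adamts2* kept the call in all 13 alternatives. The 6 lower members became 2 with counts summed per animal and 3 to 6 with 1 animal left out. The 4 lower past 2-fold became 2 with library size only, 1 with summed counts, and 2 to 4 with 1 animal left out. The 2 higher members became 4 with DESeq2 (*Mmp9* and *Mmp16* added), 0 with summed counts, 1 with the animal as a random effect (the same past 2-fold, 0 and 1), and 0 to 2 with 1 animal left out, past 2-fold also 0 to 2. In ascending/arch SMCs the 1 lower member became 3 with DESeq2, 0 with the replicate block, and 0 to 1 with 1 animal left out, and the 0 higher became 2 with DESeq2, 1 with library size only, 1 without the filter, and 0 to 1 with 1 animal left out. In descending SMCs the 2 lower became 4 with DESeq2, 0 with library size only, 1 without the filter, 0 with the replicate block, 0 with the segment fitted alone, and 0 to 2 with 1 animal left out, and the 0 higher became 1 with DESeq2 and 0 to 1 with 1 animal left out. Between segments of GFPiSMC SMCs the 1 lower became 2 and the 0 higher became 1 with DESeq2, and the lower count was 0 to 1 with 1 animal left out. In Tgfbr1/2iSMCKO SMCs DESeq2 gave 1 lower and 1 higher in place of 0 and 0. The replicate block paired same-numbered animals of different genotypes, whose deviations correlated at −0.201 to 0.216 (ascending/arch) and −0.527 to 0.00943 (descending), so they share only a number. For the genotype effect within a segment, the block was fitted to that segment alone, so it also left out the libraries of the other segment. Shares of all genes called under the alternatives are not given, and whether these shifts are particular to the members was not tested. The cause of these shifts was not tested.

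Library size in place of TMM moved the median log2 fold change of all genes from 0.04 to 0.16, and the signs of the 8 called members were the same under both. With 3 animals a group and total counts of at most 31392396, the 14 members below 1 CPM throughout give no basis for a statement on change. Of the 51 members, 23 overlap another gene, 21 of them one on the opposite strand, and *Timp3* with *Syn3* is the pair with the highest level on both strands.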
